A study of Mus musculus with 2 samples.

Results

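The genes described here encode subunits of chromatin regulators: the BAF remodelling complexes with 2 ISWI ATPases, the CHD remodellers, the core of Polycomb repressive complex PRC2, 2 KMT2 histone methyltransferases and the class I and class IIa histone deacetylases (HDACs). They were taken by symbol from a list of 43, and all 43 were found once each among 43346 Ensembl genes in the tables. The samples were hearts of mouse embryos of strain B6NCrl at embryonic day 10.5, with males and females mixed and no treatment, genotype change or second condition. Replicate 1 pooled 69 embryos and replicate 2 pooled 51, each library was made from 10 ng of total RNA longer than 200 nt with ERCC spike-ins added, and the labels link the manual of a SMARTer Ultra Low kit. With 1 group of 2 libraries there is no comparison of conditions and no p-value. A pool averages over its embryos, so the values carry no spread between individual hearts.

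BAF complexes slide or evict nucleosomes with the ATPase Smarca4 (BRG1) or Smarca2 (BRM), and most of their other positions can be filled by 1 of several paralogs, so the paralog in use differs between cell types. In the developing heart, Smarcd3 (BAF60c) and Dpf3 (BAF45c) are known as the heart- and muscle-enriched paralogs of their families, and Actl6b (BAF53b) and Dpf1 (BAF45b) as neuronal ones. PRC2 methylates lysine 27 of histone H3 through Ezh1 or Ezh2, KMT2 enzymes methylate lysine 4, class I HDACs are the catalytic subunits of nuclear corepressors, and class IIa HDACs bind and repress Mef2 factors.

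The libraries held 45205713 and 41070978 estimated reads (expected counts). Mouse genes took 43295923 and 39786163 of them. Heart muscle markers (Actc1, Tnnt2, Myh6, Myh7, Myl7, Myl2 and Nkx2-5) summed to 18444 and 30338 TPM (a length-scaled abundance relative to all transcripts), and red cell markers to 28499 and 35245 TPM. The pools differed in their make-up. All 7 liver markers were higher in replicate 1, with sums of 1288 and 52.6 TPM, and all 7 heart muscle markers and all 4 endothelial markers were higher in replicate 2. In bulk tissue, fewer cells of a type and less RNA per cell cannot be told apart.

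Nearly the whole set was expressed. At 1 TPM or more in both libraries, 42 of 43 genes were detected, against 12231 of 21474 protein-coding genes (57.0%), and the exception was Actl6b. The median level of the detected genes of the set was 40.8 TPM in replicate 1 and 31.2 TPM in replicate 2, and that of all detected protein-coding genes was 19.9 and 19.1 TPM. Together the set held 0.303% and 0.245% of all protein-coding TPM. By mean TPM the highest gene was Smarce1 (BAF57), a core BAF subunit with a DNA-binding HMG domain. It was at 216 TPM in the first replicate and 162 TPM in the second. Next came Hdac1 at 198 and 171 TPM, above Smarce1 in replicate 2. On transcripts with a complete reading frame Smarce1 held 145 and 115 TPM. By that measure Hdac1 (182 and 157 TPM), Smarcb1 (167 and 130 TPM) and Hdac2 (161 and 137 TPM) were above it. By gene TPM, 7 genes exceeded 100 TPM in both libraries. Below 10 TPM in both libraries lay 5 genes: Arid1b, Kmt2a, Kmt2d, Dpf1 and Actl6b. In the order of mean TPM the ranges of the 2 libraries overlapped for 35 of 42 neighbouring genes, so most neighbours were not separated. The steps without overlap were Hdac1 over Smarcb1, Dpf2 over Pbrm1, Brd7 over Smarcc2, Hdac7 over Chd8, Suz12 over Ezh1, Kmt2d over Arid1b and Dpf1 over Actl6b. Some were narrow: 170.6 against 169.6 TPM for Hdac1 and Smarcb1, 47.8 against 46.7 for Brd7 and Smarcc2, and 19.6 against 19.2 for Hdac7 and Chd8. On complete-frame transcripts Brd7 (20.3 and 19.4 TPM) lay below Smarcc2 (46.7 and 46.6 TPM). This rule is looser than the limit used for paralog pairs below.

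**Figure D1:**
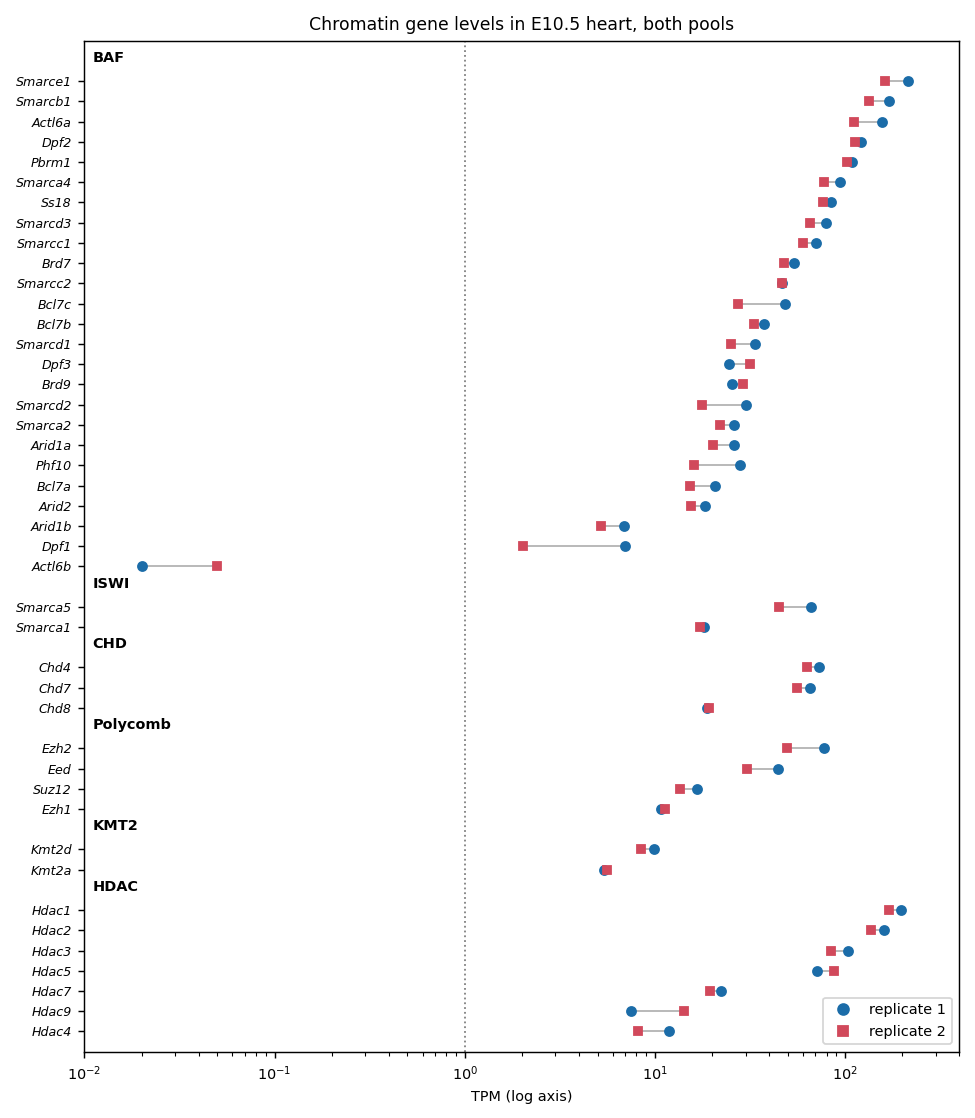
TPM (log axis) of the 43 chromatin genes in replicate 1 (circles) and replicate 2 (squares), grouped by complex and joined by a line per gene, with a dotted line at 1 TPM. All genes but Actl6b lie above the line in both libraries, and the circle lies to the right of the square for most genes.

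By complex, the 25 BAF genes summed to 1535 TPM in the first replicate and 1257 TPM in the second. The 7 HDAC genes summed to 576 and 522 TPM, the 3 CHD genes to 158 and 138 TPM, the 4 PRC2 genes to 149 and 105 TPM, the 2 ISWI genes to 84.1 and 62.6 TPM, and the 2 KMT2 genes to 15.3 and 14.0 TPM. These sums grow with the number of genes listed per complex and are no measure of complex number.

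To ask which alternative subunit led, each pair of paralogs within 14 families was compared as a log2 ratio of TPM. A pair was counted as separated when the sign was the same in both pools and the mean ratio passed a limit. The limit was set from the spread between the libraries: the 95th percentile of the absolute between-library log2 ratio among the 500 genes nearest in TPM to each gene, combined over both genes. By this rule 17 of 34 pairs were separated. The leading paralog was the same in both libraries for 13 of 14 families by TPM, and for 14 of 14 by read counts not divided by length. TPM sums all transcripts of a gene, short fragments included, so each lead was also computed from scaled counts and from the TPM of transcripts with a complete reading frame. The last measure was chosen after the transcript values were seen. Its limits came from the spread of whole-gene TPM, so they leave out any added spread of the transcript estimates between libraries.

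The ATPase position was led by Smarca4. Smarca4 (chr9:21616169-21704230, plus strand, GRCm38) stood at 94.6 TPM (16237 counts) in replicate 1 and 77.3 TPM (11883 counts) in replicate 2. Smarca2 stood at 26.1 TPM (1546 counts) and 21.9 TPM (1352 counts). Smarca4 was higher in each pool without overlap of the ranges, at a mean log2 ratio of 1.84 ± 0.03 (SD, n = 2) against a limit of 1.06. Smarca4 held 78.2% ± 0.325 of the pair's TPM, and 91.3% and 89.8% of its scaled counts. Transcripts with a complete frame held 30.6% and 40.1% of the TPM of Smarca2, and by complete-frame TPM the share of Smarca4 was 92.2% and 89.7%. Several Smarca2 models differ in length from GENCODE M21, which gave the frame labels. Among them is the complete Smarca2-201, with 5858 bases against 5921 in M21.

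The scaffold of the BAF core showed no clear lead. Smarcc1 (BAF155) was at 70.8 and 60.5 TPM and Smarcc2 (BAF170) at 46.7 and 46.6 TPM in replicates 1 and 2. The ratio of 0.49 ± 0.16 (log2, n = 2) stayed within the limit of 0.98. The other core subunits have no paralog in the list. Smarcb1 (BAF47), which contacts the nucleosome's acidic patch, was at 170 and 133 TPM. Ss18, a subunit of canonical BAF fused to SSX genes in synovial sarcoma, was at 84.4 and 76.4 TPM.

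Smarcd3 led the BAF60 family, but the size of its lead depended on the measure. BAF60 subunits link the complex to transcription factors. Smarcd3 (chr5:24590818-24624411, minus strand) was at 79.9 TPM (3383 counts) in replicate 1 and 65.7 TPM (2450 counts) in replicate 2. Smarcd1 was at 33.7 TPM (3130 counts) and 25.2 TPM (2112 counts), and Smarcd2 at 30.2 TPM (2389 counts) and 17.8 TPM (1175 counts). The TPM of Smarcd3 was above both paralogs in each pool, with no overlap. Smarcd1 over Smarcd3 was -1.31 ± 0.10 (log2, n = 2) against a limit of 0.93, and Smarcd2 over Smarcd3 was -1.64 ± 0.34 against 1.07. Smarcd3 thus held 58.0% ± 3.44 of the family's TPM, Smarcd1 23.3% ± 0.167 and Smarcd2 18.7% ± 3.27. Counts not divided by length favour the longer transcript at the same TPM. The effective length was 3054 bases for Smarcd1 in both replicates, against 1391 and 1359 bases for Smarcd3. By scaled counts Smarcd3 held 38.0% and 42.7% beside 35.2% and 36.8% for Smarcd1, at a ratio of -0.16, within its limit. Smarcd2 over Smarcd3 was also within its limit by scaled counts (-0.78 against 1.01). By complete-frame TPM Smarcd3 held 47.4% and 52.7%, and Smarcd1 over Smarcd3 was -0.80 against a limit of 0.89, while Smarcd2 over Smarcd3 was -1.25 against 1.01. Smarcd3 was first in both libraries on all 3 measures, separated from Smarcd1 by TPM alone and from Smarcd2 by TPM and complete-frame TPM. Chpf2 and Smarcd3 have overlapping exons on opposite strands, and the sources used here do not say whether reads were counted by strand.

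Dpf3 did not lead its family, which was led by Dpf2. BAF45 subunits carry paired PHD fingers that read modified histone tails. Dpf2 (BAF45d), the broadly expressed member, was at 121 TPM (7028 counts) in replicate 1 and 114 TPM (6454 counts) in replicate 2. Dpf3 (chr12:83213745-83487716, minus strand) was at 24.5 TPM (840 counts) and 31.8 TPM (980 counts). Phf10 (BAF45a), the member specific to the PBAF form of the complex, was at 28.0 and 16.0 TPM, and Dpf1 (chr7:29303951-29318243, plus strand) at 7.01 TPM (347 counts) and 2.03 TPM (108 counts). Dpf2 was above the other members in each pool. Dpf2 over Dpf3 was 2.07 ± 0.33 (log2, n = 2) against a limit of 0.93, and Dpf2 over Phf10 was 2.47 ± 0.50 against 1.04, and both were separated by counts and by complete-frame TPM too. Dpf3 held 13.5% of the family's TPM in replicate 1 and 19.5% in replicate 2, and 8.65% and 11.5% of its scaled counts. Dpf3 and Phf10 changed places between the pools, and their ratio of 0.40 ± 0.84 was within its limit of 1.04. Dpf1 was lowest in both, at -2.88 ± 1.53 relative to Dpf3 against a limit of 1.49, although by complete-frame TPM that pair was not separated (-1.75 against 1.90). Reads of Dpf3 were spread over several models: Dpf3-203, whose frame is incomplete, held 35.4% and 36.9% of its TPM, Dpf3-202, also incomplete, 26.9% and 28.0%, and the complete Dpf3-206 24.7% and 28.3%.

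The actin-like position was held by Actl6a (BAF53a), the form of dividing cells, in both pools. Actl6a was at 156 TPM (8571 counts) in replicate 1 and 111 TPM (5566 counts) in replicate 2. Actl6b had 1 count (0.02 TPM) and 2 counts (0.05 TPM). The count ratio was 8571 in replicate 1 (exact 95% interval 1538 to 338575) and 2783 in replicate 2 (770.1 to 22986), covering counting error only. The log2 TPM ratio of 11.60 rests on the pseudocount of 0.01: it was 9.94 with 0.1, 7.004 with 1 and 7.94 by posterior mean TPM, past the limit each time.

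Among the ARID subunits, which define the canonical BAF (Arid1a or Arid1b) and PBAF (Arid2) forms, Arid1a was above Arid1b. Arid1a stood at 26.2 and 20.1 TPM, Arid1b at 6.91 and 5.18 TPM and Arid2 at 18.3 and 15.5 TPM in replicates 1 and 2. Arid1a over Arid1b was 1.94 ± 0.02 (log2, n = 2) against a limit of 1.60. Arid1a over Arid2 was 0.44 ± 0.10, within its limit of 1.18. Arid1b over Arid2 was -1.49 ± 0.12, also within its limit of 1.61, and separated by scaled counts (-1.42 against 1.12). Pbrm1, the polybromo subunit of PBAF, was listed far above Arid2 at 109 and 102 TPM. Only 20.9% and 17.2% of that TPM lay on complete-frame transcripts, and Pbrm1 shares exonic positions with Gnl3 on the opposite strand.

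The bromodomain subunits of PBAF (Brd7) and non-canonical BAF (Brd9) could not be ordered. Brd7 was at 53.8 and 47.8 TPM and Brd9 at 25.5 and 29.1 TPM, and the ratio of 0.90 ± 0.26 (log2, n = 2) fell within its limit of 0.94. Complete-frame transcripts held 37.7% and 40.5% of Brd7's TPM, and by them the order turned, to -0.46. The small BCL7 subunits also had no settled leader. Bcl7c (48.3 TPM) was first in replicate 1, Bcl7b (33.3 TPM) in replicate 2, and Bcl7a by scaled counts in both, and no pair was past its limit. Bcl7a is the longest, with an effective length in replicate 1 of 4009 bases against 1326 for Bcl7b and 1283 for Bcl7c.

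**Figure D2:**
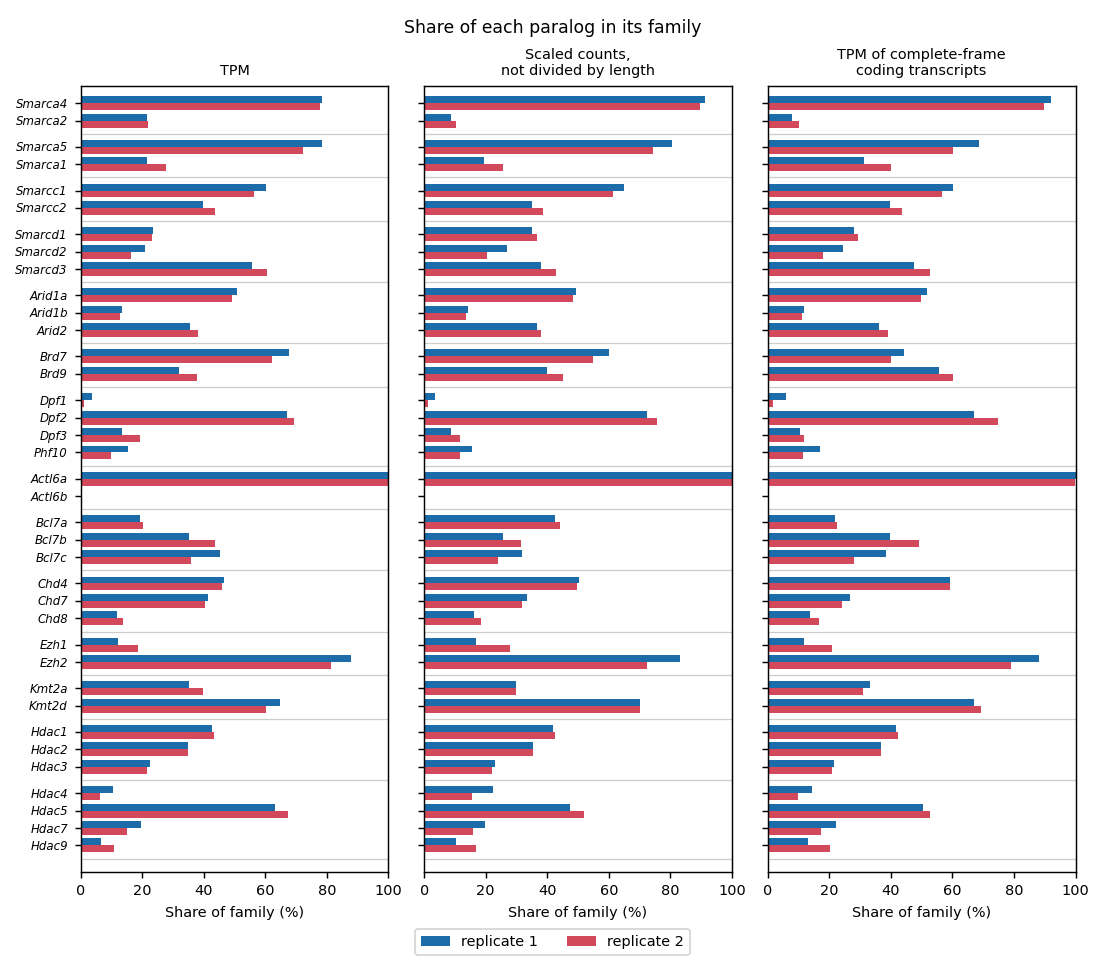
Share of each paralog in its family (%), by TPM (left), by scaled counts not divided by length (middle) and by TPM of complete-frame coding transcripts (right), with a bar for each replicate. Smarca4, Dpf2, Actl6a and Ezh2 hold most of their family in all 3 panels, whereas Smarcd3 drops from 58.0% by TPM to 40.4% by counts.

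Of the ISWI ATPases, which space nucleosomes, Smarca5 (SNF2H) was above Smarca1 (SNF2L). Smarca5 was at 66.0 and 45.3 TPM and Smarca1 at 18.2 and 17.3 TPM. The ratio was 1.62 ± 0.34 (log2, n = 2) against a limit of 1.02. By complete-frame TPM it was 0.86, within its limit of 1.08, since the complete models held 55.1% and 51.2% of Smarca5's TPM and 91.0% and 88.9% of Smarca1's.

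Among the CHD remodellers, Chd4 and Chd7 stood close together above Chd8 by gene TPM, but the place of Chd7 depended on the measure. Chd4 (Mi-2beta), the ATPase of the NuRD repressor, was at 73.3 TPM (10635 counts) and 63.4 TPM (8509 counts). Chd7, mutated in CHARGE syndrome with its heart outflow defects, was at 65.5 TPM (7069 counts) and 55.8 TPM (5458 counts), and Chd8 at 18.8 and 19.2 TPM. Chd4 over Chd7 was 0.17 ± 0.02 (log2, n = 2), within its limit of 0.94. The fragment Chd7-203 held 60.5% and 63.4% of Chd7's TPM, and complete-frame transcripts put Chd4 above Chd7 by 1.22, past a limit of 1.01. Chd4 over Chd8 was 1.84 ± 0.17 against 1.05 and was separated on all 3 measures. Chd7 over Chd8 was 1.67 ± 0.18 against 1.03 by TPM, and was not separated by scaled counts (0.92) or complete-frame TPM (0.75). Of Chd7's complete-frame TPM (23.5 and 18.8), 15.8 and 11.6 lay on Chd7-206, a model of 3462 bases. Chd7-202, of 10216 bases, was at 7.57 and 7.22 TPM, below Chd8-201 at 12.1 and 13.0 TPM.

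In PRC2, Ezh2 was the main methyltransferase transcript. Ezh2 (chr6:47530139-47595341, minus strand), the form of dividing cells, was at 77.3 TPM (5150 counts) in replicate 1 and 49.4 TPM (2780 counts) in replicate 2. Ezh1, the form that prevails in resting cells, was at 10.8 TPM (1054 counts) and 11.3 TPM (1067 counts). Ezh1 over Ezh2 was -2.48 ± 0.50 (log2, n = 2) against a limit of 1.37, separated on all 3 measures, and Ezh2 held 87.8% and 81.4% of the pair's TPM. Ezh2 was lower in replicate 2 than in replicate 1, and Ezh1 was nearly level. The partners that PRC2 needs for activity were Eed, the reader of the mark, at 44.2 and 30.7 TPM and Suz12, the scaffold, at 16.7 and 13.6 TPM. The proliferation markers Mki67, Top2a, Cdk1, Ccnb1 and Pcna summed to 1098 and 986 TPM, with a median log2 ratio of -0.03 between the pools and 3 of 5 higher in replicate 1. The KMT2 methyltransferases were low. Kmt2d (MLL4), which acts at enhancers, was at 9.95 and 8.45 TPM and Kmt2a (MLL1) at 5.38 and 5.59 TPM. Their ratio was within its limit by TPM (-0.74 against 1.73) and past it by scaled counts (-1.23 against 0.99).

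The class I HDACs stood above the class IIa HDACs, except that Hdac5 was above Hdac3 in replicate 2 (87.3 against 84.9 TPM). Hdac1 was at 198 TPM (11068 counts) and 171 TPM (8615 counts), Hdac2 at 161 and 138 TPM, and Hdac3, the enzyme of the NCoR corepressors, at 104 and 84.9 TPM. None of these pairs passed its limit: Hdac1 over Hdac2 was 0.30 ± 0.01, Hdac2 over Hdac3 was 0.67 ± 0.04 and Hdac1 over Hdac3 was 0.97 ± 0.05 against 0.99. Their order was the same in both pools. Of the class IIa enzymes, Hdac5 (chr11:102194432-102230166, minus strand) led at 71.0 TPM (4501 counts) and 87.3 TPM (5210 counts). Hdac7 was at 22.2 and 19.6 TPM, Hdac9 at 7.51 and 14.2 TPM and Hdac4 at 11.8 and 8.20 TPM. Hdac5 was separated from each: Hdac4 over Hdac5 was -3.00 ± 0.59, Hdac5 over Hdac7 was 1.92 ± 0.34 and Hdac5 over Hdac9 was 2.93 ± 0.44. Hdac5 remained first with a smaller share by scaled counts (47.3% and 51.8%, against 65.3% ± 3.13 by TPM), and complete-frame transcripts held 41.2% and 42.6% of its TPM. Hdac4 and Hdac9 changed places between the pools.

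**Figure D3:**
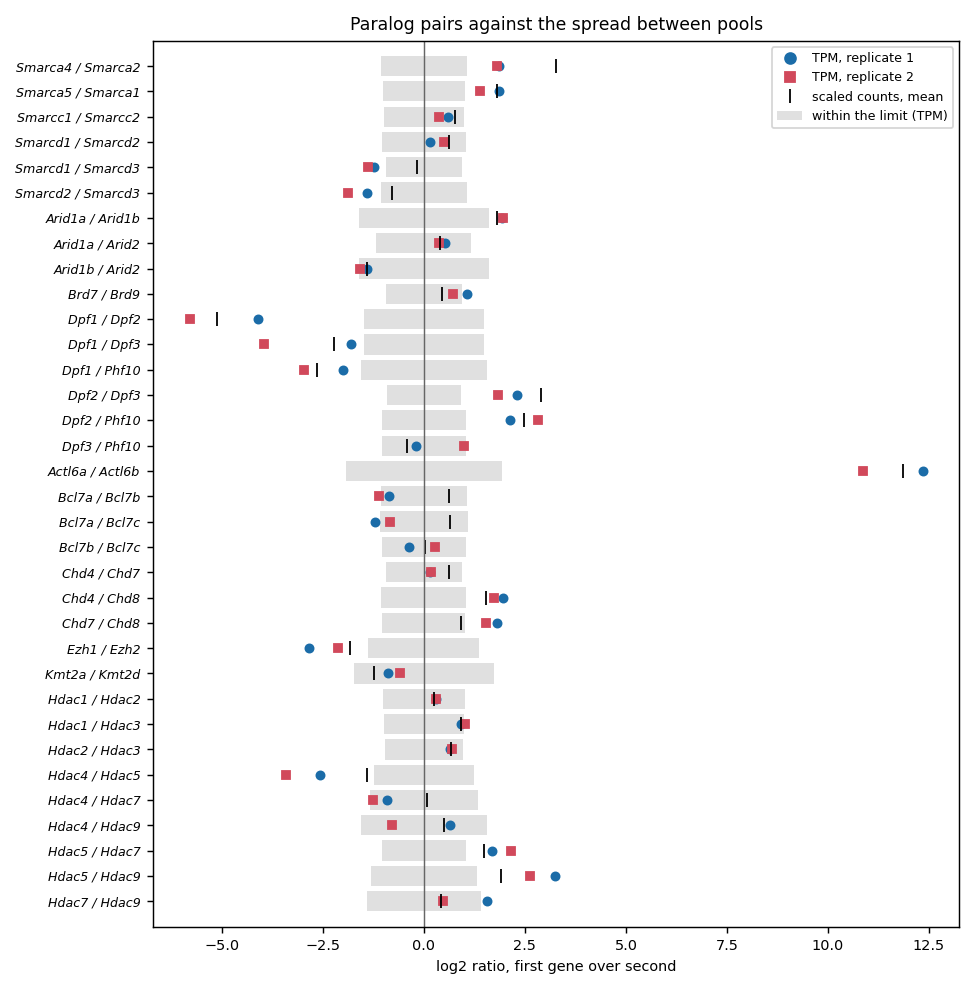
Log2 ratio of each of 34 paralog pairs (first gene over second) by TPM in replicate 1 (circles) and replicate 2 (squares) and by scaled counts (ticks, mean of both), over a grey band that marks the limit from the spread between libraries. Symbols of 17 pairs lie outside the band on average, and Actl6a over Actl6b lies farthest out at 11.60, a value set by the pseudocount of 0.01.

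Several of the genes carried optional coding segments that both libraries used. They are shown because each keeps the reading frame, so the coding transcripts with and without it encode different proteins of the same gene. The shares below also count transcripts without a complete frame that span the segment. Each share is a ratio of whole-transcript estimates, not of reads across the segment. Other differences between the transcripts can therefore enter it. Smarca4-202 has 6376 bases and Smarca4-204 has 5405, and Ezh2-201 has 2652 and Ezh2-202 has 2115, so these pairs differ by more than their segments. The genes were picked after the transcript shares were seen, from those with abundant coding transcripts that differ by such a segment. In Smarcc2 the transcript with the segment is the third by TPM. Sequences are from GENCODE M21 (GRCm38), 5′ to 3′ on the gene's strand, with the segment in capitals and 15 bases of exon on each side in lower case. Ezh2-201, Ezh2-204 and the Smarcc2 transcripts, Smarcc2-202 with the segment included, have other total lengths in the older models behind the tables.
Smarcb1: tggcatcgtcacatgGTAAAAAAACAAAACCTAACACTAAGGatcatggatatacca
Smarca4: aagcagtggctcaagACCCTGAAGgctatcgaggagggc
Smarcc2: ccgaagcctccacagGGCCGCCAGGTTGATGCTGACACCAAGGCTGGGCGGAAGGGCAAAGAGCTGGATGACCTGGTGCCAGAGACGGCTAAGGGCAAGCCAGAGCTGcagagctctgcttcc
Ezh2: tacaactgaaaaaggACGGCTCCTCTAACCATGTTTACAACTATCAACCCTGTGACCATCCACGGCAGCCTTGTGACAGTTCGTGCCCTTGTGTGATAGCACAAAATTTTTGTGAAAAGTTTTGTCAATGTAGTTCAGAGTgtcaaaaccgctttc
Suz12: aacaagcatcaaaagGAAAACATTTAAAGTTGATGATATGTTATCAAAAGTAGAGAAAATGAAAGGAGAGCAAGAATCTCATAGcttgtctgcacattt
Chd4, first: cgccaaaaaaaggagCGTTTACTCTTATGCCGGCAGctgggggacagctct
Chd4, second: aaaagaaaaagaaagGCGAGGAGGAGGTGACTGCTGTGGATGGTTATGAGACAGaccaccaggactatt

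Among the BAF genes, Smarcb1 used both forms about equally. Its segment is the last 27 bases of coding exon 2 (chr10:75916773-75916799, minus strand), and transcripts with it held 51.0% of the TPM of transcripts spanning it in replicate 1 and 50.3% in replicate 2. Smarca4 has a segment of 9 bases at the start of coding exon 29 (chr9:21686013-21686021, plus strand), present in 35.4% and 33.4%. A second one of 3 bases opens exon 30 (chr9:21699800-21699802) and was present in 36.1% and 32.7%. The same transcript, Smarca4-202, holds both. Smarcc2 has a whole optional exon, exon 18 of Smarcc2-202 with 93 bases (chr10:128481682-128481774, plus strand), and it was the minor form at 9.22% and 13.5%.

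In PRC2, the Ezh2 segment is the whole of exon 14 with 126 bases (chr6:47541845-47541970, minus strand), and 83.4% and 81.6% of the TPM included it. The Suz12 segment is exon 4 with 69 bases (chr11:79999057-79999125, plus strand). It was included in 74.1% and 63.5% of TPM, and 66.5% and 47.7% of counts. These shares include retained-intron models, the largest at 2.92 and 3.37 TPM, beside the coding Suz12-201 at 7.79 and 3.84 TPM. The coding Suz12-206, without the exon, was at 4.29 and 4.95 TPM, above Suz12-201 in replicate 2. Suz12-201 (with the exon) held 46.6% and 28.3% of the gene's TPM and Suz12-206 (without it) 25.6% and 36.5%, so the leading transcript differed between the pools. The deposited interval of Suz12-201 ran from 3.79 to 10.6 TPM in replicate 1 and from 1.66 to 6.89 TPM in replicate 2, and these overlap, so the difference was not resolved. In Chd4 the first segment is the first 21 bases of exon 4 (chr6:125100778-125100798, plus strand), in 47.7% and 39.5%, and the second the first 39 bases of exon 9 (chr6:125102432-125102470), in 54.6% and 56.5%. The transcripts that led Chd4, Chd4-202 in replicate 1 (33.7%) and Chd4-203 in replicate 2 (31.5%), differ by both. Their deposited intervals overlap in replicate 1 (20.2 to 25.9 and 17.5 to 25.5 TPM). They also overlap in replicate 2 (13.3 to 20.4 and 15.5 to 22.8 TPM), so the change of leader was not resolved.

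**Figure D4:**
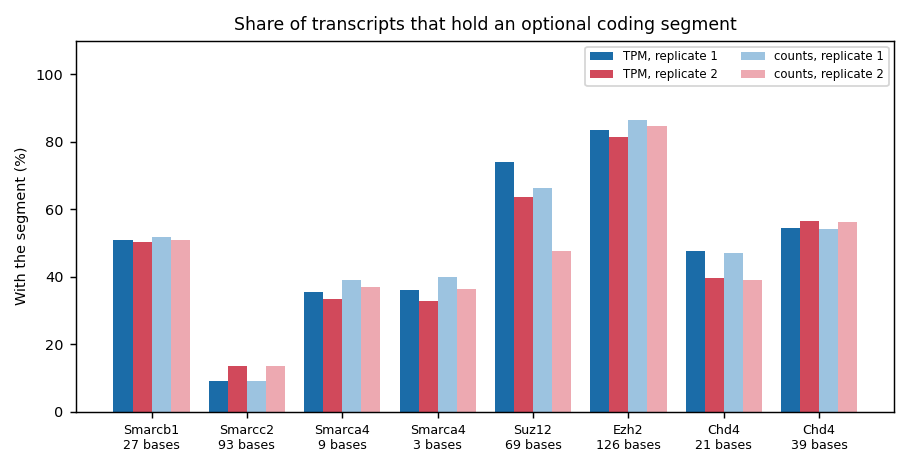
Percent of each gene's transcripts spanning the site that hold the optional coding segment, by TPM (dark bars) and by counts (light bars) in replicates 1 and 2. Ezh2 includes its segment in over 80% and Smarcc2 in under 14%, and Suz12 shows the widest gap between the pools. Transcripts without a complete frame that span the site are counted too, among them retained-intron models of Suz12 and Ezh2.

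For the remaining transcripts, the leading one held 60% or more of the gene's TPM in 27 of 42 genes with a share. In 37 of 42 it had a complete reading frame. The leading transcript of Smarcd3, Smarcd3-201, held 71.4% and 69.0% of TPM. In Smarca2 the first place by TPM went to Smarca2-215, labelled a target of nonsense-mediated decay (41.1% and 38.7%), and by counts to the coding Smarca2-201. The labels are from M21, where Smarca2-215 has 2018 bases, against 1460 in the older models behind the tables. In Hdac7 it went to the retained-intron model Hdac7-211 (36.7% and 33.0%) by TPM and to the coding Hdac7-201 by counts. In Phf10 the coding Phf10-201 led by TPM and the decay target Phf10-203 by counts. Kmt2a-201 held 84.1% and 61.6% of Kmt2a's TPM, and the incomplete Kmt2a-203 14.2% and 37.1%.

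Between the pools the genes differed little, with a tilt towards replicate 1. The log2 ratio of TMM-scaled counts, replicate 2 over replicate 1, had a median of -0.15 over the 42 genes with a mean count of 10 or more, and of 0.00 over all such genes. It was below 0 for 31 of 42 (73.8%), against 50.5% of all 17547 genes. Scaling by the spike-ins moved the median of all genes to 0.32 and that of the set to 0.18, and only 9 of 42 genes then lay below 0, so the direction of the tilt holds relative to other genes and not as an absolute change. The set lay 0.14 below all genes under TMM and spike-in scaling and 0.13 below by deposited TPM. By complex the median TMM ratio was -0.21 for BAF, -0.38 for PRC2, -0.11 for the HDACs and -0.07 for the CHD genes.

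A gene was called as differing between the libraries when the ratio was at least 2-fold, the mean count at least 50 and the deposited TPM intervals did not overlap. This called 2 of 42 tested genes (4.76%), against 7.06% of 14124 genes. At 1.5-fold it called 5 of 42 (11.9%) against 16.3%: Smarcd2, Dpf1, Bcl7c and Ezh2, higher in replicate 1, and Hdac9, higher in replicate 2. These values come from 2 libraries and have no further replicate check.

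Dpf1 was the 1 gene called at 2-fold as higher in replicate 1 (background 4.75%), with a log2 ratio of -1.43 from 347 and 108 counts. Of 7 neuronal markers, 6 were higher in replicate 1, with sums of 25.4 and 15.4 TPM and a median ratio of -1.14. Only 3 of the 7 reached 1 TPM in both libraries, and Tubb3 alone was at 13.1 and 8.86 TPM. None of the 7 was at 0. The part of neuronal RNA in the Dpf1 difference was not tested. Dpf1 was below 0 under spike-in scaling too, at -1.11.

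Hdac9 (chr12:34047580-34917095, minus strand) was the 1 gene called at 2-fold as higher in replicate 2 (background 2.31%). Its log2 ratio was 1.02 from 987 and 1683 counts, and the TPM interval ran from 6.91 to 7.83 in replicate 1 and from 13.2 to 14.6 in replicate 2. By deposited TPM the ratio was 0.92, under 2-fold. The heart muscle markers were higher in replicate 2 by a median of 0.88 and the endothelial markers, with sums of 127 and 176 TPM, by 0.56. Their part in the Hdac9 difference was not tested. Dpf3 (0.47) and Hdac5 (0.46) were next, both under 1.5-fold. Smarcd3, with -0.22, did not share their sign.

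Ezh2 differed by -0.64, Eed by -0.43 and Suz12 by -0.33, and Ezh1 by 0.27. The liver markers, all 7 higher in replicate 1 with a median of -4.64, moved in the direction of Ezh2, and their part was not tested. Smarcd2 (-0.77) and Bcl7c (-0.76) were lower in replicate 2 by more than any BAF gene but Dpf1. Under spike-in scaling Smarcd2 was at -0.45, Bcl7c at -0.44 and Ezh2 at -0.32.

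**Figure D5:**
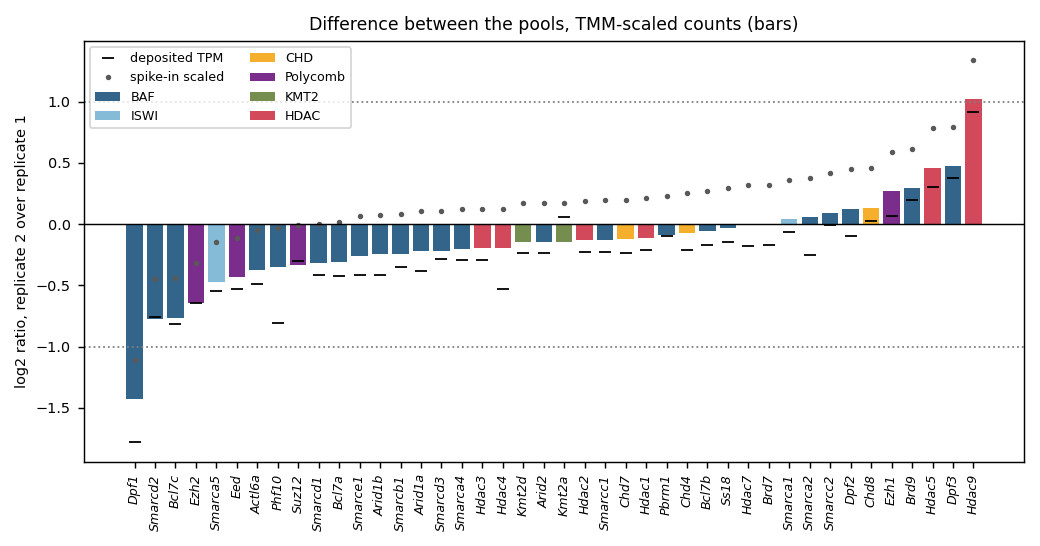
Log2 ratio of replicate 2 over replicate 1 for the 42 genes with a mean count of 10 or more, by TMM-scaled counts (bars, coloured by complex), deposited TPM (ticks) and spike-in scaled counts (dots), with dotted lines at 2-fold. Dpf1 (-1.43) and Hdac9 (1.02) reach the lines by TMM, and the spike-in dots lie above the bars for every gene.

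Other chromatin genes of the same pathways were as widely expressed. Of 64 partners, 62 were detected in both libraries, and Chd5, a neuronal NuRD ATPase (0.01 and 0.02 TPM), and Cbx7, a PRC1 chromodomain subunit (0.68 and 0.89 TPM), were not. The 2-fold rule called 0 of 63 tested partners, against 7.06% of all genes. Of these partners, 38 were higher in replicate 1 and 25 in replicate 2, and the median log2 ratio was -0.18. The histone-binding proteins Rbbp7 (484 and 472 TPM) and Rbbp4 (312 and 278 TPM), shared by NuRD and PRC2, were above every gene of the main set. Among the PRC2 accessory proteins Mtf2 (88.0 and 78.6 TPM) and Jarid2 (33.1 and 31.3 TPM) were highest. In PRC1, which binds the PRC2 mark, Yaf2 (105 and 98.6 TPM) and the ubiquitin ligase Rnf2 (69.8 and 68.8 TPM) were highest. The KMT2 core proteins Dpy30 (154 and 150.3 TPM) and Ash2l (82.3 and 65.3 TPM) were above Kmt2a and Kmt2d. Of the HDAC partners the scaffold Sin3b (123 and 132 TPM) and the corepressor Ncor1 (111 and 96.5 TPM) were highest. Of further CHD genes, Chd1 (27.2 and 15.3 TPM) and Chd2 (17.0 and 19.1 TPM) were highest, near the level of Chd8. Further BAF genes were led by Bicra (6.24 and 5.0 TPM) and Ss18l1 (3.69 and 2.95 TPM).

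The posterior SD of the deposited gene counts was small, which is not a share of ambiguous reads. In 30 of 43 genes the deposited counts were undivided in both libraries, and in the other 13 the largest posterior SD was 0.976% of the count. Exons overlapped those of another gene on the same strand for 5 genes and on the opposite strand for 18, among them Smarcc1 with Dhx30, Actl6a with Mrpl47 and Hdac7 with Slc48a1.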

How the data were processed

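Total RNA of 2 heart pools was sequenced, and per the labels the assembly was mm10; the deposited description gives annotation M4. The authors deposited, per gene and per transcript, expected counts (estimated reads), TPM, FPKM, the percent of a gene's TPM in each transcript, and bounds of a TPM interval, treated as a score. The interval belongs to the posterior mean and need not hold the TPM. For the quantifier, its version and the use of strand: not given in the sources used here.

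From these files, gene names came from GENCODE M21 (42462 of 43346 genes matched). Of 293 transcripts of the genes described, 291 were matched and 256 had the same length in M21, from which the complete-frame label comes. Rounded counts were scaled by TMM (edgeR 4.0.16, R 4.3.3) with a prior count of 0.5; DESeq2 1.42.0 size factors, spike-in scaling, pseudocounts and filters were alternatives. Pair ratios used log2(TPM + 0.01). The scaling and the 2-fold call were tested on simulated counts with planted changes. The simulation used counting intervals in place of the deposited ones and had no difference in pool make-up. The limit for paralog pairs was not simulated. The libraries differed beyond sampling noise (chi-square per degree of freedom 99.8). A count of 0 allows up to 3 counts, and this floor, like the intervals, covers counting error only. The genes, lists and rules were chosen with earlier results of these data known. All listed genes could be named; of the partners, the 2 highest per group, those under 1 TPM in both libraries and those differing; of transcripts, the leading ones and close seconds.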

Additional observations from a re-analysis of the deposited data

How the results depend on the processing

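The number of separated pairs stayed between 14 and 20 under the other settings, except that counting pairs whose library ranges do not overlap gave 29 in place of 17. Of the 17, 14 were separated by scaled counts and 13 by complete-frame TPM. No paired analysis was possible because there is 1 group. Genes differing between the libraries numbered 1 by deposited TPM and 5 at 1.5-fold, in place of 2. The median ratio of the set turned to 0.18 under spike-in scaling. Of pairs not past their limit, Brd7 over Brd9 turned to -0.46 by complete-frame TPM; Dpf3 over Phf10 to -0.42 by counts and -0.35 by complete-frame TPM, and lay between -0.19 and 0.99 with 1 library; Bcl7a over Bcl7b to 0.61 and over Bcl7c to 0.65 by counts; Bcl7b over Bcl7c to 0.034 by counts and 0.42 by complete-frame TPM (-0.37 to 0.28 with 1 library); Hdac4 over Hdac7 to 0.078 by counts; and Hdac4 over Hdac9 to 0.016 by posterior mean TPM and 0.51 by counts (-0.79 to 0.65 with 1 library). The cause was not tested. Depth limited Actl6b, at 1 and 2 counts.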
